A study of Mus musculus with 3 samples.

Results

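Chromatin-modifying enzymes and chromatin remodellers were followed by RNA sequencing in splenic macrophages of leukemic mice. The group was taken from gene symbols alone. It holds the genes whose mouse symbol begins with Kmt, Kdm, Setd, Hdac, Kat, Chd or Smarc followed by a digit or by a letter and a digit, without Kdm5c, Kdm5d, Kdm6a and the katanin genes. A gene also had to reach 1 FPKM (fragments per kilobase of transcript per 1e+06 mapped fragments) in any of 3 libraries. Of 74 genes that matched, 70 reached that level, out of 12961 genes of the whole data set that did. The other 4 were Kdm4d at 0.09 FPKM in mM-CSF, 0.17 in sM-CSF and 0.21 in control, Chd5 at 0.04 FPKM in mM-CSF, 0.08 in sM-CSF and 0.05 in control, Smarca5-ps at 0.06 FPKM in mM-CSF, 0.11 in sM-CSF and 0.27 in control, and Smarca1 at 0 FPKM in mM-CSF, 0.03 in sM-CSF and 0 in control. Just inside the limit were Smarcd3, at 2.14 FPKM in mM-CSF, 1.93 in sM-CSF and 1.14 in control, Hdac11, at 2.18 FPKM in mM-CSF, 3.22 in sM-CSF and 1.81 in control, and Setd4, at 2.61 FPKM in mM-CSF, 3.25 in sM-CSF and 1.27 in control.

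The products of these genes set how tightly DNA is wound on histones. Methyltransferases and acetyltransferases add marks to histone tails, demethylases and deacetylases remove them, and remodellers spend ATP to slide or evict nucleosomes. In macrophages these enzymes are known for opening and closing the enhancers and promoters that answer growth factors and inflammatory signals, and several of them are recurrent partners in the fusion proteins or mutations of acute myeloid leukemia.

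All animals were C57BL/6J mice that received 800000 leukemia cells carrying GFP and BFP at 6 to 8 weeks of age, without irradiation, and such mice lived for 30 to 40 days. The transplanted acute myeloid leukemia was high in mM-CSF in the first group, high in sM-CSF in the second and high in neither in the control group, so all 3 groups had leukemia and no healthy animal was included. M-CSF is the growth factor of macrophages, and the labels leave its prefixes m and s unexplained. Cells negative for GR1, intermediate for CD115 and positive for F4/80 were sorted on day 18, and whether a library came from 1 animal or from a pool is not given. There was 1 library per group. No difference below therefore has a replicate check or a p-value, and each describes these libraries.

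Total estimated counts were 8.57e+06 in the mM-CSF library, 8.94e+06 in the sM-CSF library and 9.09e+06 in the control library. The sort markers were present in each: Csf1r, which encodes CD115, stood at 222 FPKM in mM-CSF, 149 in sM-CSF and 268 in control, and Adgre1, which encodes F4/80, stood at 67.5 FPKM in mM-CSF, 65.5 in sM-CSF and 101 in control. Markers of other cells were present as well, none of them at 0 in any library. The summed level of 10 macrophage markers was 952 FPKM in mM-CSF, 864 in sM-CSF and 1596 in control, that of 6 non-classical monocyte markers 200 FPKM in mM-CSF, 338 in sM-CSF and 891 in control, and that of 6 conventional dendritic cell markers 45.2 FPKM in mM-CSF, 237 in sM-CSF and 274 in control. The sum was 4313 FPKM in mM-CSF, 1425 in sM-CSF and 1372 in control for 6 plasma cell markers, 836 FPKM in mM-CSF, 164 in sM-CSF and 161 in control for 5 primary granule genes, and 254 FPKM in mM-CSF, 45.9 in sM-CSF and 38.6 in control for 7 neutrophil markers. Sums for 6 B cell markers were 2579 FPKM in mM-CSF, 2299 in sM-CSF and 1208 in control, for 6 T cell markers 485 FPKM in mM-CSF, 348 in sM-CSF and 185 in control, for 6 NK cell markers 502 FPKM in mM-CSF, 319 in sM-CSF and 250 in control, for 7 erythroid genes 3591 FPKM in mM-CSF, 3197 in sM-CSF and 4296 in control, for 5 blast and progenitor genes 37.6 FPKM in mM-CSF, 65.6 in sM-CSF and 70.4 in control, and for 6 cycling genes 410 FPKM in mM-CSF, 303 in sM-CSF and 396 in control. A sum does not always follow its members. Of the 5 blast and progenitor genes, Kit stood at 6.02 FPKM in mM-CSF, 34.67 in sM-CSF and 35.03 in control, while Cd34, Hoxa9 and Meis1 were higher in mM-CSF than in control. Levels in mM-CSF were above those in control for 5 of the 10 macrophage markers and 3 of the 6 cycling genes, although the macrophage sum was lower. These sums move with the libraries that are compared below, and their part in the values of the chromatin genes was not tested. The sums and the single marker levels were not adjusted for gene length. Over all genes, the median mM-CSF minus control difference of log2(FPKM + 1) was 0.70 for genes of 53 to 1390 bases. For genes of 4391 to 83437 bases it was -0.78. How far the marker levels follow gene length rather than cell content was not tested. In bulk RNA, fewer cells of a type and less RNA per cell cannot be told apart.

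Promoters are shown for Setdb2 and Kdm1b, which had the lowest and the highest difference between mM-CSF and control relative to genes of like length, and for Smarca2, whose transcript length differed most between libraries. The stretches are the 250 bases before the annotated start, read 5′ to 3′ on the strand of the gene from RefSeq, build GRCm38.p6. For Smarca2, GENCODE M21 starts a long transcript at chr19:26605052, inside the stretch shown. It starts a short transcript at chr19:26748403, which lies 143351 bases further on, so the stretch is not the promoter of that form. Capitals mark CCAAT and GGGCGG (the GC box) on either strand.
Setdb2, chr14:59440881-59441130, minus strand: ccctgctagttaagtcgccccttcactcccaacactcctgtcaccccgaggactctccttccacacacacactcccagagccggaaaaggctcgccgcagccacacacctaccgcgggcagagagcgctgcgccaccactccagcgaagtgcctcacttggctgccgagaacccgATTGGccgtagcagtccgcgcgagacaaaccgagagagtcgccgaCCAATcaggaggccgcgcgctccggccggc
Kdm1b, chr13:47043249-47043498, plus strand: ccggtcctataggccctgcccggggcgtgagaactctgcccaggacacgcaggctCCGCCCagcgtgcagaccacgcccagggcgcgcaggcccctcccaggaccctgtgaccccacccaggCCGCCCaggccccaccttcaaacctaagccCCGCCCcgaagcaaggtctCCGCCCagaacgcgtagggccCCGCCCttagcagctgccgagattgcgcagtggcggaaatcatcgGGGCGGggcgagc
Smarca2, chr19:26604910-26605159, plus strand: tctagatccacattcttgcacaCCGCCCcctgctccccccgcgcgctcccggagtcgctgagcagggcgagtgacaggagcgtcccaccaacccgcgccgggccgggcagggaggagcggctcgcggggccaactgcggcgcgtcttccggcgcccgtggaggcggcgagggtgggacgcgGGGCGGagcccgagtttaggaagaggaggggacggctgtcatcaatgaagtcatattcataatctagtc

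The Setdb2 stretch held 2 CCAAT matches and no GC box, the Kdm1b stretch held 6 GC boxes, and the Smarca2 stretch held 2. They contained 24, 22 and 28 CpG dinucleotides. Among the 53 chromatin genes with a promoter in the RefSeq table, the median was 20 CpG, against 6 over all 27025 promoters of the same length. The promoters of all genes were not limited to genes at 1 FPKM or more, as the chromatin genes were. Part of these contrasts may thus belong to expressed genes in general, which was not tested. GGGCGG on either strand was found in 66.0% of the chromatin promoters and in 32.9% of all promoters. CCAAT was found in 39.6% and 34.5%, TATAAA in 5.66% and 13.0%, and the PU.1 core GAGGAA in 24.5% and 23.1%. The AP-1 site TGANTCA was in 5.66% against 6.87%, and the E box CACGTG in 1.89% against 6.05%. The cyclic AMP response element TGACGTCA was in 0% of the chromatin promoters against 1.62% of all. No motif searched is contained in another, and a match is only a description of the sequence.

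Taken as one sum, the 70 genes stood at 1214 FPKM in the mM-CSF library, 1656 FPKM in the sM-CSF library and 1705 FPKM in the control library. They held 0.538% of the estimated counts in the mM-CSF library (exact binomial 95% interval 0.533 to 0.543, for counting error only), 0.880% in the sM-CSF library (0.873 to 0.886) and 0.984% in the control library (0.978 to 0.991). The mM-CSF library stood lowest on both measures. Of the 70 genes, 38 stood at 10 FPKM or more in every library, and 7 had fewer than 100 counts in some library, with 18 counts for Smarcd3 in the control library as the lowest. The median over genes and libraries was 711 counts.

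**Figure D1:**
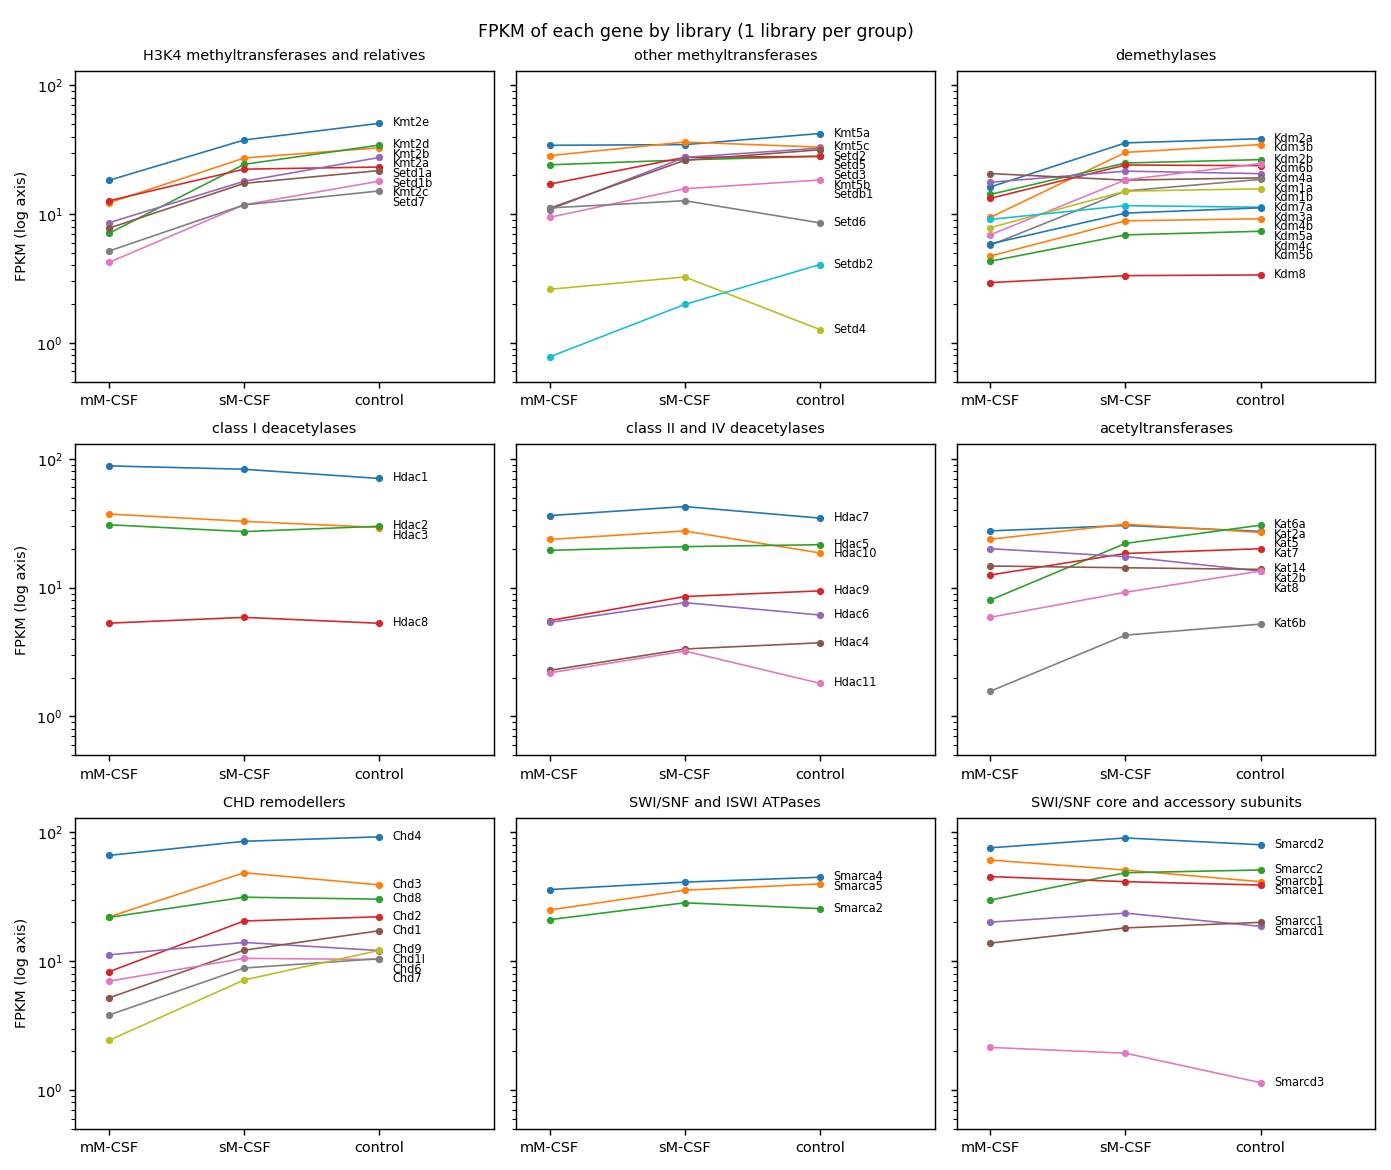
FPKM (log axis) of each of the 70 genes in the mM-CSF, sM-CSF and control libraries, 1 panel per role, with 1 point per gene and library and lines that join the points of a gene. Lines of the methyltransferases of H3K4 run lowest in the mM-CSF library in every case, while no class I deacetylase stands lower there than in the control library.

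Libraries were compared by the difference of log2(FPKM + 1), in which changes of weakly expressed genes come out too small. A gene was counted as lower or higher when its difference was at least 1 in size, which is 2-fold. Between the mM-CSF and control libraries, 21 of the 70 genes were lower by that rule and 0 were higher, which is 30% of the group. Over all 12961 genes, 14.3% were lower and 8.09% were higher. The median difference was -0.58 for the chromatin genes and -0.07 for all genes, and 53 of the 70 differences were below 0, with a range of -2.13 to 0.67. The 21 genes were 7 of the 8 H3K4 methyltransferases and relatives (Kmt2a, Kmt2b, Kmt2c, Kmt2d, Kmt2e, Setd1b and Setd7), Setd2, Setd5 and Setdb2 among the other methyltransferases, the demethylases Kdm2a, Kdm3b, Kdm6b and Kdm7a, the acetyltransferases Kat2b, Kat6a and Kat6b, and the remodellers Chd1, Chd2, Chd6 and Chd9. No deacetylase and no Smarc gene was among them.

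Most of those genes are long. The median gene length in the deposited tables was 4653 bases for the chromatin genes, from 1503 bases for Kat8 to 19827 bases for Kmt2d, against 2616 bases for all genes. Among the 27 chromatin genes of 6000 bases or more, 19 were lower in the mM-CSF library than in the control library, or 70.4%, with a median difference of -1.38. Of the 23 genes from 3000 to 6000 bases, 1 was lower (Kat2b) and the median was -0.64. Of the 20 genes under 3000 bases, 1 was lower (Setdb2) and the median was 0.11. The medians of all genes of the data set were in the same order, -0.97 from 6000 bases, -0.43 from 3000 to 6000 bases and 0.27 under 3000 bases. Among all genes, 47.7% of those of 6000 bases or more were lower, 17.9% of those from 3000 to 6000 bases and 7.21% of those under 3000 bases. Restricted to genes at 5 FPKM or more in some library, 56.6% of the longest class were lower.

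Across the 70 chromatin genes the Spearman correlation of the difference with gene length was -0.82 between mM-CSF and control, -0.70 between sM-CSF and control and -0.80 between mM-CSF and sM-CSF. Over all 12961 genes it was -0.58 between mM-CSF and control, -0.37 between sM-CSF and control and -0.54 between mM-CSF and sM-CSF. These are correlations across genes of the same libraries, which are not independent replicates, and each pair of comparisons shares a library. Transcripts of the GENCODE M21 annotation allowed the length to be split for all 70 chromatin genes: the mM-CSF minus control difference correlated at -0.72 with coding length and at -0.52 with the length of the 3′ untranslated region. For 91.8% of all genes the same values were -0.51 and -0.44. The chromatin genes had a median coding length of 3210 bases against 1311 bases for all genes, and a nearly equal 3′ untranslated region, 1030 against 1019 bases.

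**Figure D2:**
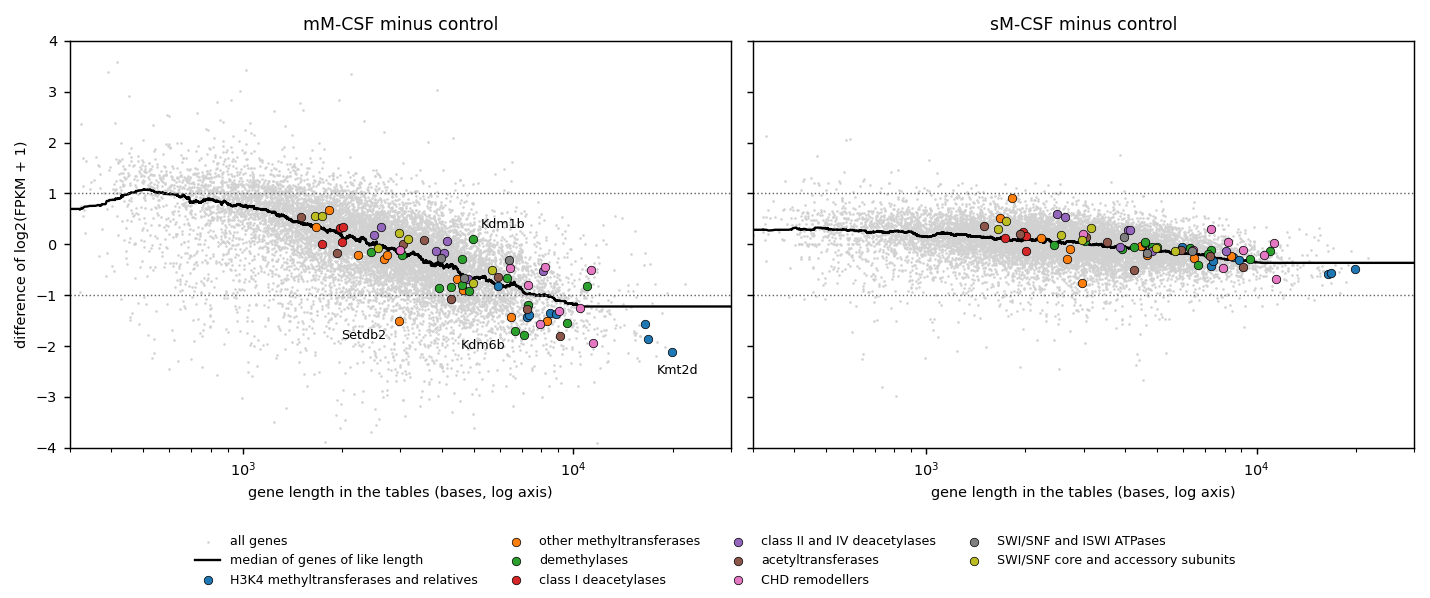
Difference of log2(FPKM + 1), mM-CSF minus control (left) and sM-CSF minus control (right), against the gene length in the tables (log axis). Coloured points are the 70 chromatin genes by role, grey points all genes within the drawn range, the black line the median of the genes nearest in length, and dotted lines mark 2-fold; in the left panel the black line and the coloured points run down together, with a correlation of -0.82 for the coloured points.

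Each gene was therefore also set against the genes nearest to it in length, the 150 next shorter, the 150 next longer and itself, by subtracting their median difference. After this length adjustment, 1 chromatin gene was at least 2-fold lower in the mM-CSF library than in the control library, Setdb2, and 0 were higher. Over all genes, 9% were lower and 3.36% were higher by the adjusted rule. The median adjusted difference of the chromatin genes was -0.05, with 40 below 0 and 30 above 0 and a range of -1.33 to 0.76. Before the adjustment, the share of lower genes among genes of like length averaged 28.7%, against 30% of the chromatin group. In their own windows of like length, 16 of the 70 lay under the 25th percentile and 10 above the 75th. The correlation of the adjusted difference with length was -0.26 among the 70, so a part of the order by length remained. The 7 longest chromatin genes, Chd6, Chd7, Chd9, Kdm5a, Kmt2a, Kmt2c and Kmt2d, have fewer than 150 longer genes and share the window of the longest genes, which runs from 8740 to 83437 bases and is not centred on them.

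**Figure D3:**
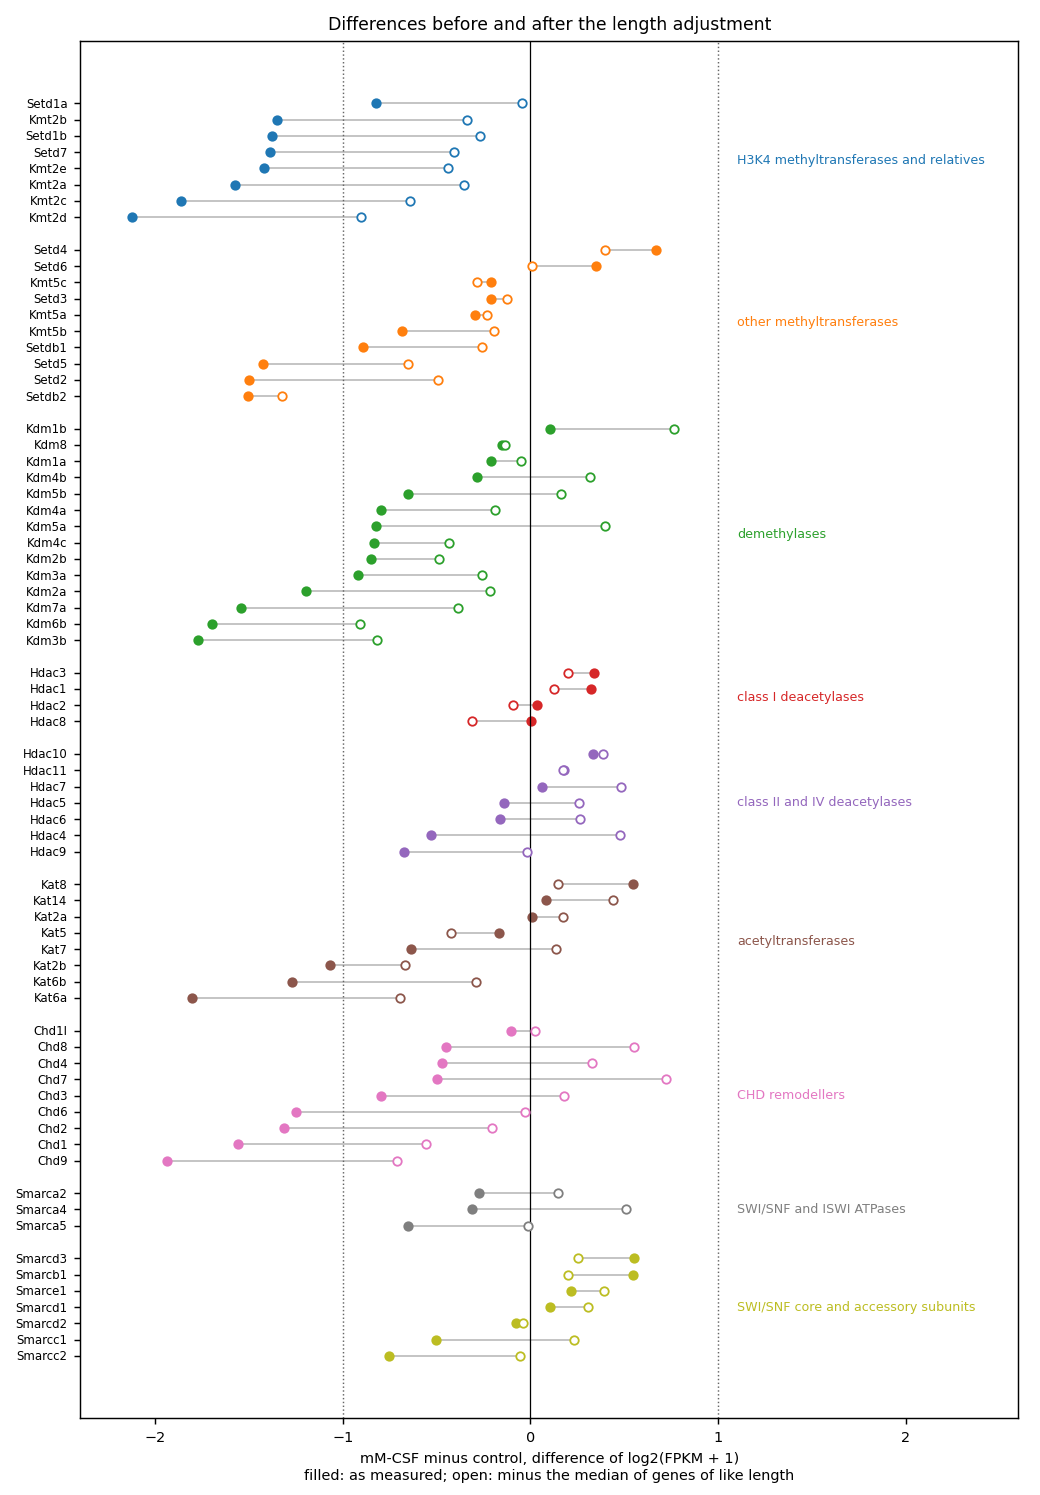
Difference of log2(FPKM + 1), mM-CSF minus control, for each of the 70 genes by role: filled points as measured, open points after subtracting the median of the genes of like length, dotted lines at 2-fold. Of the filled points 21 lie at or beyond the left dotted line, and of the open points 1, Setdb2.

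The writers of H3K4 methylation, the mark of promoters and enhancers, and their relatives had the lowest median difference of the 9 roles between mM-CSF and control. Their 8 genes summed to 76.1 FPKM in the mM-CSF library, 170 FPKM in the sM-CSF library and 223 FPKM in the control library, with a median mM-CSF minus control difference of -1.40. After length adjustment the median was -0.38, and all 8 genes were below 0, from -0.90 for Kmt2d to -0.04 for Setd1a. Kmt2e, a divergent SET protein, had the highest level of the class, 18.3 FPKM in mM-CSF, 37.6 in sM-CSF and 50.7 in control. Of all counts, its share was 2.75-fold lower in mM-CSF than in control (2.57 to 2.94, exact 95% interval for counting error only, as for all intervals below), and its adjusted difference was -0.44. Kmt2b, a promoter H3K4 methyltransferase, stood at 12.2 FPKM in mM-CSF, 27.3 in sM-CSF and 32.7 in control, with a share of counts 2.66-fold lower in mM-CSF than in control (2.46 to 2.87) and an adjusted difference of -0.34.

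Kmt2d, which writes enhancer H3K4 methylation and is the longest of the 70 genes, stood at 7.10 FPKM in the mM-CSF library, 24.3 FPKM in the sM-CSF library and 34.3 FPKM in the control library. As a share of counts it was 4.80-fold lower in mM-CSF than in control (4.52 to 5.11) and 3.41-fold lower in mM-CSF than in sM-CSF (3.20 to 3.64). The adjusted differences were -0.90 and -0.81, at the 6.98 and 4.32 percentiles of its window. That window, shared with Kmt2a and Kmt2c, runs from 8740 to 83437 bases, and most of its genes are shorter than Kmt2d. Kmt2c, its paralog, stood at 4.22 FPKM in mM-CSF, 11.8 in sM-CSF and 18.02 in control, and Kmt2a, the MLL gene that leukemia translocations break, at 8.58 FPKM in mM-CSF, 17.99 in sM-CSF and 27.5 in control. Setd1a and Setd1b, the catalytic subunits of the COMPASS complexes, stood at 12.7 FPKM in mM-CSF, 22.3 in sM-CSF and 23.2 in control and at 7.78 FPKM in mM-CSF, 17.3 in sM-CSF and 21.8 in control. Setd7, which methylates histone and other proteins, stood at 5.17 FPKM in mM-CSF, 11.8 in sM-CSF and 15.1 in control. In each of these 5 genes the mM-CSF library was lowest and the control library highest.

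Among the 10 other methyltransferases, 3 were at least 2-fold lower in mM-CSF than in control, and the class median was -0.49 as measured and -0.25 after length adjustment. Setdb2, a relative of the H3K9 methyltransferases known in macrophages as an interferon-induced gene, stood at 0.78 FPKM in the mM-CSF library, 1.99 FPKM in the sM-CSF library and 4.06 FPKM in the control library. These levels rest on 20 estimated counts in mM-CSF, 53 in sM-CSF and 111 in control. In share of counts it was 5.23-fold lower in mM-CSF than in control (3.23 to 8.90), 2.06-fold lower in sM-CSF than in control (1.47 to 2.92) and 2.54-fold lower in mM-CSF than in sM-CSF (1.49 to 4.48). With 2961 bases it is no long gene, and its adjusted differences from control were -1.33 in mM-CSF and -0.79 in sM-CSF, at the 2.99 and 1.66 percentiles of genes of like length. It overlaps the annotated gene Gm45935, and reads of both may not be separable.

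Setd5, a SET protein that associates with deacetylase corepressor complexes, stood at 11.1 FPKM in mM-CSF, 26.2 in sM-CSF and 31.6 in control. By share of counts it was 2.82-fold lower in mM-CSF than in control (2.58 to 3.10) and 2.35-fold lower in mM-CSF than in sM-CSF (2.14 to 2.58), with adjusted differences of -0.65 and -0.59. Setd2, the writer of H3K36 trimethylation behind elongating polymerase, stood at 10.9 FPKM in mM-CSF, 27.6 in sM-CSF and 32.5 in control, with an adjusted mM-CSF minus control difference of -0.49. Kmt5a, which places the first methyl group on H4K20, had the highest mean level of the class over the 3 libraries, at 34.2 FPKM in mM-CSF, 34.6 in sM-CSF and 42.2 in control. Measured as a share of counts, it was 1.24-fold lower in mM-CSF than in control (1.13 to 1.36) and 1.22-fold lower in sM-CSF than in control (1.11 to 1.33), and its adjusted differences were -0.23 and -0.33. Kmt5c, which adds further methyl groups to H4K20, stood at 28.5 FPKM in mM-CSF, 36.3 in sM-CSF and 33.1 in control, with a share of counts 1.17-fold lower in mM-CSF than in control (1.04 to 1.31).

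Setd4 ran the other way, at 2.61 FPKM in the mM-CSF library, 3.25 FPKM in the sM-CSF library and 1.27 FPKM in the control library. With 41 counts in mM-CSF, 53 in sM-CSF and 21 in control, its share of counts was 2.07 times that of control in mM-CSF (1.2 to 3.69) and 2.56 times in sM-CSF (1.52 to 4.48). The adjusted difference was 0.40 for mM-CSF and 0.82 for sM-CSF. In sM-CSF this lay at the 99.7 percentile of genes of like length. Setd6, which methylates proteins other than histones, was also higher in both than in control, at 11.2 FPKM in mM-CSF, 12.7 in sM-CSF and 8.55 in control. Setdb1, an H3K9 methyltransferase that silences retroelements, stood at 9.45 FPKM in mM-CSF, 15.8 in sM-CSF and 18.4 in control, Kmt5b at 17.1 FPKM in mM-CSF, 27.6 in sM-CSF and 28.1 in control, and Setd3, which methylates actin, at 24.1 FPKM in mM-CSF, 26.4 in sM-CSF and 28.1 in control.

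The 14 demethylases included the highest and, after Setdb2, the lowest adjusted difference between mM-CSF and control. Their median difference was -0.83 between mM-CSF and control and -0.20 after length adjustment, with 10 genes below 0 and 4 above. Kdm6b, the H3K27 demethylase that inflammatory stimuli induce in macrophages, stood at 6.91 FPKM in the mM-CSF library, 18.5 FPKM in the sM-CSF library and 24.7 FPKM in the control library. Its share of counts was 3.55-fold lower in mM-CSF than in control (3.18 to 3.97) and 2.66-fold lower in mM-CSF than in sM-CSF (2.37 to 2.99), with adjusted differences of -0.91 and -0.73. Kdm3b, an H3K9 demethylase, stood at 9.43 FPKM in mM-CSF, 30.1 in sM-CSF and 34.7 in control. Its share was 3.66-fold lower in mM-CSF than in control (3.34 to 4.01) and 3.18-fold lower in mM-CSF than in sM-CSF (2.90 to 3.50), and its adjusted difference of -0.89 between mM-CSF and sM-CSF was the lowest of the 70. Between sM-CSF and control, Kdm3b had an adjusted difference of 0.03.

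Kdm1b, a flavin-dependent demethylase of H3K4 and paralog of Kdm1a, was nearly level, at 20.6 FPKM in the mM-CSF library, 18.4 FPKM in the sM-CSF library and 19.1 FPKM in the control library. Its share of counts in mM-CSF was 1.09 times that in control (0.989 to 1.19) and 1.13 times that in sM-CSF (1.03 to 1.24). Genes of its length, 4987 bases, were lower in mM-CSF, so its adjusted differences were 0.76 and 0.71, the highest of the 70 in both comparisons, at the 90.7 and 92.4 percentiles. It overlaps the protein-coding gene Dek. Kdm2a, a demethylase that binds unmethylated CpG islands, had the highest mean level of the class over the 3 libraries, at 16.2 FPKM in mM-CSF, 35.7 in sM-CSF and 38.5 in control, with a share of counts 2.36-fold lower in mM-CSF than in control (2.19 to 2.53) and an adjusted difference of -0.22. Kdm1a, the other flavin-dependent enzyme, stood at 17.7 FPKM in mM-CSF, 21.6 in sM-CSF and 20.6 in control. The H3K4 demethylases Kdm5a and Kdm5b stood at 5.88 FPKM in mM-CSF, 10.2 in sM-CSF and 11.2 in control and at 4.31 FPKM in mM-CSF, 6.90 in sM-CSF and 7.36 in control, with adjusted mM-CSF minus control differences of 0.40 and 0.16. That of Kdm1a was -0.05.

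The other H3K9 demethylases stood at 7.85 FPKM in mM-CSF, 15.1 in sM-CSF and 15.7 in control for Kdm3a, 13.3 FPKM in mM-CSF, 24.1 in sM-CSF and 23.8 in control for Kdm4a, 9.1 FPKM in mM-CSF, 11.6 in sM-CSF and 11.3 in control for Kdm4b, and 4.73 FPKM in mM-CSF, 8.87 in sM-CSF and 9.20 in control for Kdm4c. Kdm7a, a PHD finger demethylase, stood at 5.74 FPKM in mM-CSF, 15.1 in sM-CSF and 18.6 in control, and Kdm8 at 2.94 FPKM in mM-CSF, 3.33 in sM-CSF and 3.37 in control. All 6 were lowest in the mM-CSF library, and Kdm4a and Kdm4b were marginally highest in the sM-CSF library.

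The class I deacetylases, of which Hdac1, Hdac2 and Hdac3 are catalytic subunits of nuclear corepressor complexes, were short genes of 1736 to 2005 bases and were not lower in the mM-CSF library than in the control library in FPKM, while the class median was below 0 in TPM. They summed to 162 FPKM in the mM-CSF library, 149 FPKM in the sM-CSF library and 135 FPKM in the control library. Hdac1, of the NuRD, Sin3 and CoREST complexes, stood at 88.2 FPKM in mM-CSF, 83.0 in sM-CSF and 70.4 in control, with a share of counts in mM-CSF 1.26 times that in control (1.17 to 1.36). Hdac3, the deacetylase of the NCoR and SMRT corepressors, stood at 37.3 FPKM in mM-CSF, 32.7 in sM-CSF and 29.3 in control, with a share 1.28 times that in control (1.14 to 1.44). After length adjustment the same mM-CSF minus control differences were 0.13 and 0.20. Hdac2, the paralog of Hdac1, stood at 30.8 FPKM in mM-CSF, 27.2 in sM-CSF and 30.0 in control, and Hdac8 at 5.30 FPKM in mM-CSF, 5.88 in sM-CSF and 5.29 in control. The ratio of Hdac1 to Hdac2 in FPKM was 2.87 in mM-CSF, 3.05 in sM-CSF and 2.35 in control.

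Among the 7 class II and IV deacetylases, many of which shuttle between nucleus and cytoplasm, no gene differed 2-fold in any comparison, and 6 of 7 had a length-adjusted mM-CSF minus control difference above 0, with a median of 0.27. Hdac7 had the highest level, at 36.3 FPKM in mM-CSF, 42.6 in sM-CSF and 34.7 in control. Of all counts, its share was 0.981 times that of control in mM-CSF (0.907 to 1.06) and 1.23 times in sM-CSF (1.14 to 1.32). Hdac10, a polyamine deacetylase, stood at 23.7 FPKM in mM-CSF, 27.6 in sM-CSF and 18.6 in control, with a share of counts 1.28 times that of control in mM-CSF (1.13 to 1.45) and 1.49 times in sM-CSF (1.32 to 1.69). The adjusted difference from control was 0.39 for mM-CSF and 0.53 for sM-CSF. Hdac11, the class IV enzyme, stood at 2.18 FPKM in mM-CSF, 3.22 in sM-CSF and 1.81 in control, on 47 counts in mM-CSF, 72 in sM-CSF and 41 in control, with a share in sM-CSF 1.78 times that of control (1.2 to 2.69) and an adjusted difference of 0.54. Hdac4, of class IIa, stood at 2.28 FPKM in mM-CSF, 3.34 in sM-CSF and 3.73 in control, with a share 1.63-fold lower in mM-CSF than in control (1.34 to 1.99) and an adjusted difference of 0.47 in that comparison and 0.34 between mM-CSF and sM-CSF. Hdac5 stood at 19.5 FPKM in mM-CSF, 20.8 in sM-CSF and 21.6 in control, the tubulin deacetylase Hdac6 at 5.37 FPKM in mM-CSF, 7.65 in sM-CSF and 6.13 in control, and Hdac9 at 5.55 FPKM in mM-CSF, 8.53 in sM-CSF and 9.44 in control.

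Of the 8 acetyltransferases, 3 were 2-fold lower in mM-CSF than in control, and the class median was -0.40 as measured and -0.08 after length adjustment. Kat6a (MOZ), a leukemia fusion partner, stood at 8.02 FPKM in the mM-CSF library, 22.1 FPKM in the sM-CSF library and 30.6 FPKM in the control library, with an adjusted mM-CSF minus control difference of -0.69. Its paralog Kat6b stood at 1.57 FPKM in mM-CSF, 4.28 in sM-CSF and 5.21 in control. Kat2b (PCAF), a subunit of coactivator complexes, stood at 5.89 FPKM in mM-CSF, 9.21 in sM-CSF and 13.5 in control. As a share of counts it was 2.33-fold lower in mM-CSF than in control (1.98 to 2.74) and 1.47-fold lower in sM-CSF than in control (1.28 to 1.68), with adjusted differences of -0.67 and -0.43. Its paralog Kat2a (GCN5), with the highest mean level of the class over the 3 libraries, stood at 27.6 FPKM in mM-CSF, 30.4 in sM-CSF and 27.4 in control, and its share in mM-CSF was 1.01 times that of control (0.915 to 1.12). The ratio of Kat2a to Kat2b in FPKM was 4.68 in mM-CSF, 3.30 in sM-CSF and 2.03 in control.

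Kat5 (Tip60), an acetyltransferase of the DNA damage response, stood at 23.8 FPKM in mM-CSF, 31.1 in sM-CSF and 26.8 in control, with a share of counts in mM-CSF 0.895 times that of control (0.781 to 1.03) and an adjusted difference of -0.42. Kat14, of the ATAC coactivator complex, stood at 14.7 FPKM in mM-CSF, 14.3 in sM-CSF and 13.9 in control, with a share in mM-CSF 1.02 times that of control (0.893 to 1.17) and adjusted differences of 0.44 from control and 0.35 from sM-CSF. Kat7 (HBO1) stood at 12.5 FPKM in mM-CSF, 18.4 in sM-CSF and 20.1 in control. Kat8 (MOF), which acetylates H4K16 and is the shortest of the 70 genes, stood at 20.1 FPKM in mM-CSF, 17.4 in sM-CSF and 13.4 in control, highest in the mM-CSF library in FPKM and in the sM-CSF library in TPM, and its adjusted mM-CSF minus control difference was 0.14.

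The 9 CHD remodellers had a median mM-CSF minus control difference of -0.80 and an adjusted median of 0.02, with 4 genes below 0 and 5 above. Chd4 and Chd3, the alternative ATPases of the NuRD complex, stood at 66.3 FPKM in mM-CSF, 85.3 in sM-CSF and 92.3 in control and at 22.1 FPKM in mM-CSF, 48.6 in sM-CSF and 39.1 in control. The Chd4 share of counts was 1.38-fold lower in mM-CSF than in control (1.33 to 1.44), with an adjusted difference of 0.33. That of Chd3 was 1.76-fold lower in mM-CSF than in control (1.65 to 1.88), and in sM-CSF it was 1.24 times that in control (1.18 to 1.31), with adjusted differences of 0.18 and 0.54. The ratio of Chd4 to Chd3 in FPKM was 3.0 in mM-CSF, 1.75 in sM-CSF and 2.36 in control.

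Chd7, the gene of CHARGE syndrome, and Chd8, a regulator of Wnt target genes, are as long as the lower members of the class but differed less. Chd7 stood at 7.0 FPKM in mM-CSF, 10.5 in sM-CSF and 10.3 in control, with a share of counts 1.46-fold lower in mM-CSF than in control (1.33 to 1.61) and an adjusted difference of 0.72. Chd8 stood at 21.9 FPKM in mM-CSF, 31.4 in sM-CSF and 30.3 in control, with a share 1.38-fold lower (1.29 to 1.47) and an adjusted difference of 0.55. At the other end of the class, Chd9 stood at 2.43 FPKM in mM-CSF, 7.15 in sM-CSF and 12.1 in control, with a share of counts 4.93-fold lower in mM-CSF than in control (4.29 to 5.67) and 1.69-fold lower in sM-CSF than in control (1.54 to 1.85), and with an adjusted difference from control of -0.71 for mM-CSF and -0.32 for sM-CSF. Chd1, which reads H3K4 methylation, stood at 5.19 FPKM in mM-CSF, 12.2 in sM-CSF and 17.2 in control, Chd2 at 8.29 FPKM in mM-CSF, 20.5 in sM-CSF and 22.1 in control, Chd6 at 3.82 FPKM in mM-CSF, 8.85 in sM-CSF and 10.5 in control, and the poly(ADP-ribose)-activated remodeller Chd1l at 11.2 FPKM in mM-CSF, 14.0 in sM-CSF and 12.1 in control.

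None of the 10 Smarc genes taken by the symbol rule differed 2-fold between any pair of libraries in the deposited FPKM. Smarca4 (BRG1), the main SWI/SNF ATPase, stood at 35.99 FPKM in the mM-CSF library, 41.1 FPKM in the sM-CSF library and 44.8 FPKM in the control library. In share of counts it was 1.24-fold lower in mM-CSF than in control (1.17 to 1.31) and 1.14-fold lower in mM-CSF than in sM-CSF (1.07 to 1.21). For a gene of 6369 bases this was less than in most genes of like length, with adjusted differences of 0.51 and 0.43. Smarca5 (SNF2H), the ISWI ATPase, stood at 24.99 FPKM in mM-CSF, 35.5 in sM-CSF and 39.9 in control, with a share of counts 1.58-fold lower in mM-CSF than in control (1.47 to 1.71) and an adjusted difference of -0.01. Its pseudogene Smarca5-ps was below 1 FPKM in every library, and reads of near-identical copies may be divided between them.

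The 7 core and accessory SWI/SNF subunits summed to 248 FPKM in the mM-CSF library, 275 FPKM in the sM-CSF library and 251 FPKM in the control library, with a median adjusted mM-CSF minus control difference of 0.23. Smarcd2, a subunit needed for granulocyte maturation, had the highest level, at 75.9 FPKM in mM-CSF, 90.5 in sM-CSF and 80.2 in control, with a share of counts 1.11-fold lower in mM-CSF than in control (1.03 to 1.18). Smarcb1, a core subunit and tumour suppressor, stood at 61.0 FPKM in mM-CSF, 51.0 in sM-CSF and 41.4 in control, with a share in mM-CSF 1.48 times that of control (1.33 to 1.64) and an adjusted difference of 0.20. Smarce1 stood at 45.4 FPKM in mM-CSF, 41.4 in sM-CSF and 39.0 in control, the scaffold subunits Smarcc1 and Smarcc2 at 13.8 FPKM in mM-CSF, 18.1 in sM-CSF and 20.02 in control and at 29.8 FPKM in mM-CSF, 48.6 in sM-CSF and 51.1 in control, Smarcd1 at 20.1 FPKM in mM-CSF, 23.6 in sM-CSF and 18.7 in control, and Smarcd3 as given above.

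**Figure D4:**
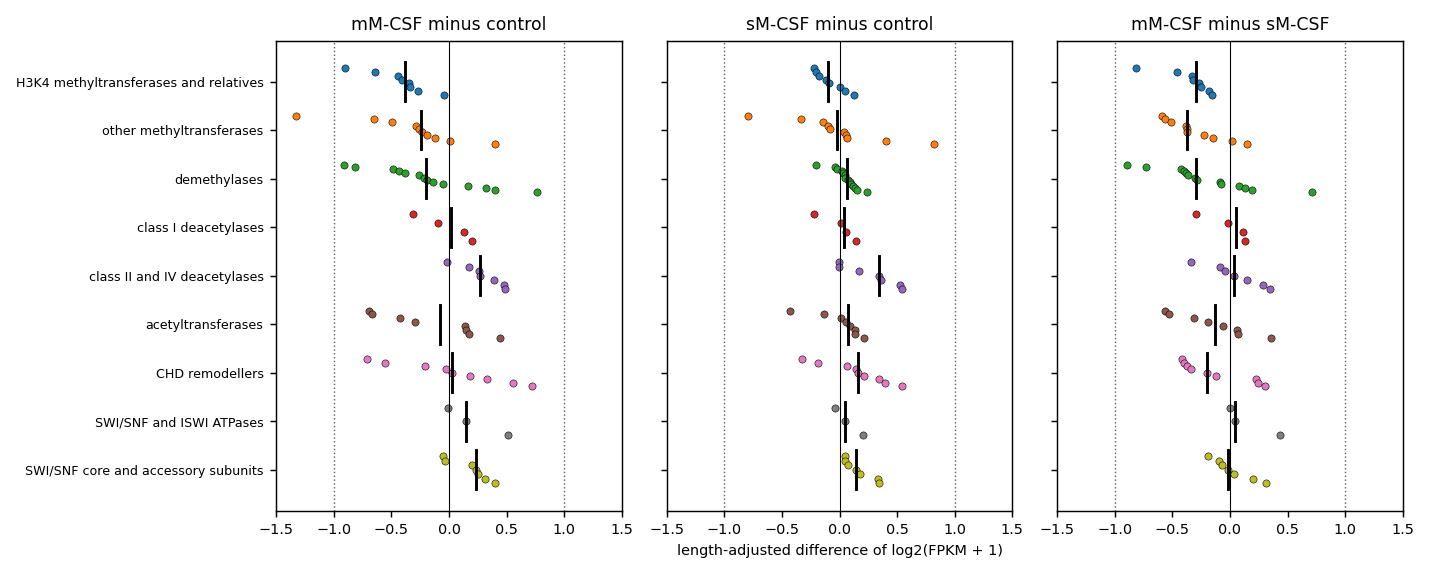
Length-adjusted differences of log2(FPKM + 1) by role for mM-CSF minus control, sM-CSF minus control and mM-CSF minus sM-CSF, with 1 point per gene, black bars for the class median and dotted lines at 2-fold. In the left panel all 8 points of the H3K4 methyltransferases and relatives lie below 0, while the class II and IV deacetylases and SWI/SNF core subunits have medians of 0.27 and 0.23.

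Between the sM-CSF and control libraries, 0 of the 70 genes were 2-fold lower and 0 were 2-fold higher in log2(FPKM + 1), against 1.91% and 1.17% of all genes. By share of counts 2 weakly expressed genes passed 2-fold, Setdb2 at 2.06-fold lower and Setd4 at 2.56 times control. After length adjustment the counts in log2(FPKM + 1) were again 0 and 0, against 2.17% and 0.818% of all genes. The median difference was -0.08 for the chromatin genes and 0.02 for all genes, within a range of -0.76 (Setdb2) to 0.90 (Setd4). The adjusted median was 0.06, with 49 of the 70 genes above 0. Adjusted differences were highest for Setd4, Chd3, Hdac11 and Hdac10 and lowest for Setdb2, Kat2b, Kmt5a and Chd9, with the values given above.

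In mM-CSF set against sM-CSF, 18 of the 70 genes were 2-fold lower in log2(FPKM + 1) and 0 were higher, against 8.55% and 3.67% of all genes. With median-of-ratios scaling 10 were lower, against 6.47% of all genes. The mean share of lower genes among genes of like length was 15.6%, below the 25.7% of the chromatin group. All 18 were genes of 6000 bases or more, where they made up 66.7% of the 27 chromatin genes, against 26.1% of all genes that long and 32.8% of those at 5 FPKM or more. After length adjustment 0 chromatin genes were lower and 0 were higher, against 5.56% and 2.31% of all genes. The median was -0.51 as measured (all genes -0.11) and -0.15 after adjustment, with 46 genes below 0 and 24 above. In windows of like length 28 of the 70 lay under the 25th percentile and 5 above the 75th. The mM-CSF library is in both comparisons in which chromatin genes were lower, and the control library is in both comparisons with control.

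These counts depend on how the libraries are scaled. Summed FPKM over all genes was 624289 in the mM-CSF library, 500018 in the sM-CSF library and 452400 in the control library. Rescaled to the same sum (transcripts per 1e+06, TPM), the median of all genes moved to -0.50 for mM-CSF minus control, -0.11 for sM-CSF minus control and -0.41 for mM-CSF minus sM-CSF, and 28.9% of all genes were lower and 2.99% higher in mM-CSF than in control. On that scale 35 chromatin genes were 2-fold lower in mM-CSF than in control, with a median of -1.05. Of the 17 chromatin genes with a difference above 0 between mM-CSF and control in FPKM, 4 kept it in TPM: Setd4, Smarcd3, Kat8 and Smarcb1. The difference of Hdac1 changed sign, 0.32 in FPKM and -0.14 in TPM, as did that of Hdac3, 0.34 and -0.11, and the median of the class I deacetylases, 0.18 and -0.28. Relative to the median of all genes on the TPM scale, the median of the class I deacetylases was 0.22 and that of the H3K4 methyltransferases and relatives was -1.40. Between sM-CSF and control, 19 of 27 genes above 0 in FPKM kept that sign in TPM, among them Setd4, Chd3, Hdac10 and Hdac11. Between mM-CSF and sM-CSF, 9 were above 0 in FPKM and 0 of them in TPM.

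Levels per gene conceal differences in transcript length in a few members. The tables give for each gene a mean length over its transcripts, weighted by their estimated abundance. It differed by more than 1% between the mM-CSF and control libraries in 12 of the 70 genes and was shorter in mM-CSF in all 12. Over all genes listed in every library, 1688 differed by that much and 1288 of them, or 76.3%, were shorter in mM-CSF. Between sM-CSF and control 6 chromatin genes differed and 5 were shorter in sM-CSF, against 691 of 1190 of all genes, or 58.1%. Between mM-CSF and sM-CSF 11 differed and 10 were shorter in mM-CSF, against 1170 of 1525 of all genes, or 76.7%.

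Smarca2 (BRM), the alternative SWI/SNF ATPase, had the sixth strongest shortening of 12697 genes. Its mean length was 2729 bases in the mM-CSF library, 3926 bases in the sM-CSF library and 5268 bases in the control library. The estimated count was 496 in mM-CSF, 1006 in sM-CSF and 1237 in control, and the share of counts was 2.35-fold lower in mM-CSF than in control (2.12 to 2.62). Because FPKM divides by the shorter length, Smarca2 stood at 21.0 FPKM in mM-CSF, 28.4 in sM-CSF and 25.6 in control, a difference of only -0.27 between mM-CSF and control. GENCODE M21 on GRCm38 lists a transcript of 5921 bases at chr19:26605052-26778321 with 4749 coding bases, and a transcript of 1962 bases at chr19:26748403-26778321 with 708 coding bases, both on the plus strand with the same 3′ end. The authors list 2 transcripts for Smarca2, whose RefSeq identifiers match this pair. If their lengths were those of GENCODE M21, the mean lengths correspond to 19.4% long transcripts in mM-CSF, 49.6% in sM-CSF and 83.5% in control. The long form would then be at 4.07 FPKM in mM-CSF, 14.1 in sM-CSF and 21.4 in control and the short form at 16.9 FPKM in mM-CSF, 14.3 in sM-CSF and 4.22 in control. On this reading the long form would be lowest and the short form highest in the mM-CSF library, and the length-adjusted mM-CSF minus control differences of log2(FPKM + 1) were -1.36 for the long and 1.58 for the short form. The tables hold 1 value per gene and no depth per exon, so the split rests on the authors' abundance estimates.

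Kdm2b, which brings a Polycomb complex to CpG islands, had a similar pair of transcripts with 3′ ends 3 bases apart: 5180 bases at chr5:122870665-122989099 and 3532 bases at chr5:122870668-122900355, on the minus strand, with 3927 and 2328 coding bases. Its mean length was 3676 bases in mM-CSF, 3940 bases in sM-CSF and 4156 bases in control. The authors list 2 transcripts for Kdm2b, whose RefSeq identifiers match this pair. If these had the GENCODE M21 lengths, the long-form share would be 8.73% in mM-CSF, 24.8% in sM-CSF and 37.9% in control. The long form would be at 1.24 FPKM in mM-CSF, 6.18 in sM-CSF and 10.0 in control and the short form at 13.0 FPKM in mM-CSF, 18.8 in sM-CSF and 16.5 in control, so that on this reading both would be lowest in mM-CSF. For Chd9 and Kdm4a, whose transcript pairs end 1853 and 5086 bases apart, the share of the long form on the same reading was nearly the same in each library. For Chd9 it was 80.7% in mM-CSF, 78.2% in sM-CSF and 77.5% in control, and for Kdm4a 96.1% in mM-CSF, 95.02% in sM-CSF and 93.9% in control. Hdac9 did not allow this reading. Its mean length was 4740 bases in mM-CSF, 4670 in sM-CSF and 5045 in control. The authors list 2 transcripts for Hdac9 as well, and the matching GENCODE M21 transcripts have 4413 and 3204 bases. At least 1 of them was therefore longer in the authors' annotation than in GENCODE M21. Whether the transcript lengths of the other genes also differed is not known. When 1 length per gene was used in all libraries, Smarca2 and Kdm2b joined the genes at least 2-fold lower in mM-CSF than in control. Their differences were -1.18 and -1.01. That made 23 genes lower, against 14.1% of all genes.

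**Figure D5:**
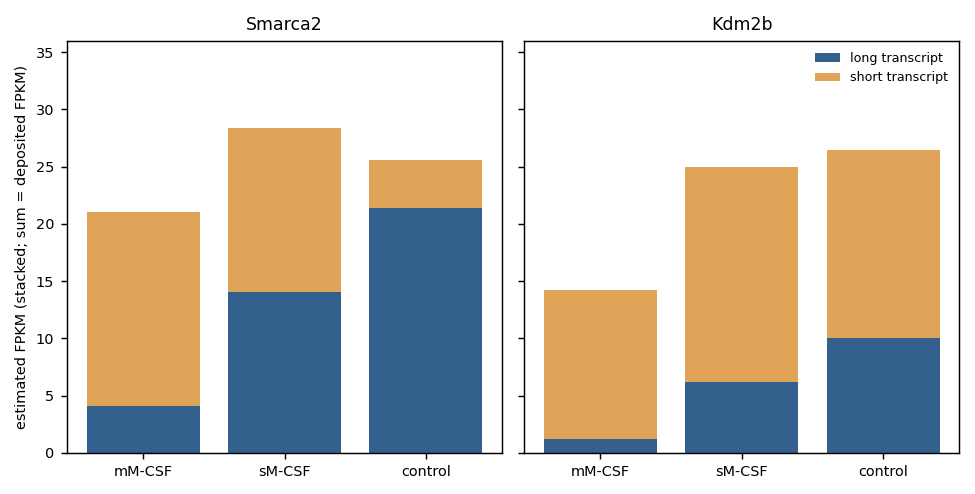
Estimated FPKM of the long and the short transcript of Smarca2 and Kdm2b in the mM-CSF, sM-CSF and control libraries, stacked to the deposited FPKM of the gene, as computed from the mean length in each table and GENCODE M21 transcript lengths. The long transcript of Smarca2 makes up 4.07 of 21.0 FPKM in mM-CSF and 21.4 of 25.6 FPKM in control.

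Chromatin genes that the symbol rule did not take, among them Smarcad1 and Smarcal1, were read from a list of 115 genes, of which 110 were measured. Between mM-CSF and control 32 of them were 2-fold lower and 3 higher, where 14.3% and 8.09% of all genes were. After length adjustment 5 were lower and 0 higher, where 9% and 3.36% of all genes were, so the adjusted share of lower genes was below that of all genes. The median of the 110 was -0.47 as measured and -0.05 after adjustment. Between sM-CSF and control none was 2-fold lower or higher, where 1.91% and 1.17% of all genes were. Between mM-CSF and sM-CSF 24 were lower and 0 higher, where 8.55% and 3.67% of all genes were, and 2 were lower after adjustment, where 5.56% of all genes were. The 5 lower in mM-CSF than in control after adjustment were Gatad2b, Rcor1, Tet2, Ep300 and Ncoa2. Ep300, the p300 acetyltransferase, stood at 6.26 FPKM in mM-CSF, 23.6 in sM-CSF and 36.6 in control, with an adjusted mM-CSF minus control difference of -1.31. Gatad2b, a NuRD subunit, stood at 1.70 FPKM in mM-CSF, 16.6 in sM-CSF and 26.6 in control (adjusted -3.61), and Rcor1, the CoREST scaffold that partners Kdm1a and Hdac1, at 2.12 FPKM in mM-CSF, 12.2 in sM-CSF and 19.2 in control (adjusted -2.61). The tables give these 2 genes lengths of 1912 and 2725 bases, whereas their longest GENCODE M21 transcripts have 7438 and 5684 bases, so their windows of like length hold genes shorter than those transcripts. At the upper end, the histone chaperone Rbbp4 stood at 51.7 FPKM in mM-CSF, 42.1 in sM-CSF and 42.1 in control (adjusted 0.73) and the NuRD subunit Mbd3 at 116 FPKM in mM-CSF, 70.8 in sM-CSF and 54.0 in control (adjusted 0.69).

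Of the 41 chromatin genes with 1 transcript, 34 had a table length within 5% of a GENCODE M21 transcript, against 70.1% of such genes overall. Another annotated gene overlaps 41 of the 70, a protein-coding one in 15 cases, and whether counting used the strand is not given in the sources used here. Counts were whole within 0.005 in every library for 52 of the 70.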

How the data were processed

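RNA of sorted splenic macrophages was sequenced on a BGISEQ-500 from 1 ug of total RNA, 1 library per group, per the labels' protocols. Per the file headers, the columns of the deposited tables include transcript identifiers, expected counts (the authors' estimate of each gene's reads), gene lengths in bases and FPKM values. The FPKM values were scaled by the authors to length and library size. The transcript identifiers are those of RefSeq. Bowtie2 2.2.5 and RSEM appear in the submitters' processing notes with no stated role. The authors' genome build is not given in the sources used here, nor is the release of their annotation. Sequencing depth was 8.57e+06 to 9.09e+06 estimated counts, so that 3 counts, taken as the floor, amount to 0.350 CPM in mM-CSF, 0.335 CPM in sM-CSF and 0.330 CPM in control.

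Gene symbols, neighbours and promoters came from RefSeq tables of GRCm38.p6 (54 of 17615 listed genes had no symbol), and transcript lengths and starts from GENCODE M21 on GRCm38. Differences of log2(FPKM + 1) were computed with Python 3.11.15, numpy 2.4.6, pandas 2.3.3, scipy 1.17.1 and statsmodels 0.14.6, and figures with matplotlib 3.10.9. A gene was counted when its difference was at least 1. The length adjustment subtracted the median difference of the genes nearest in length, 150 to each side, or the nearest window at the ends of the length range. Ratios of shares of counts have exact conditional (Clopper-Pearson) 95% intervals on rounded counts. These cover counting error only, since reads without molecular identifiers are not independent molecules. With 1 library per group no test between groups was made. The steps were tested on simulated data.

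The genes, lists and comparisons were chosen with earlier results of these data known. Full values were given to the 4 highest and 4 lowest genes by adjusted difference in each comparison and to the 2 genes with the highest mean FPKM in each of 9 roles. Of the other chromatin genes, those past the adjusted rule and the extremes were named after their values were seen. Alternatives changed the pseudocount, minimum, scaling, size rule and length adjustment, and a lowess fit on length and 1 length per gene were added after seeing the data.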

Additional observations from a re-analysis of the deposited data

How the results depend on the processing

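No paired analysis was possible because there was 1 library per group, and no replicate could be left out. Of the 129 counts and medians recomputed under alternatives, 104 stayed close and 25 moved, and no median over the whole group changed sign. A count was close within 1.5 times, and a count of 0 only when it stayed 0. A median was close inside an order-statistic interval over the genes, which is no replicate spread. A change of direction was not defined for counts. In TPM, signs of single genes and of the class I deacetylase median did change, as given above. With a pseudocount of 0.1 FPKM, sM-CSF against control gave 1 gene higher, against 2.63% of all genes. After length adjustment it gave 1 lower (Setdb2) and 1 higher, against 3.70% and 2.11%. In mM-CSF against sM-CSF, 1 was lower after adjustment (Setdb2), against 8.22%. With a minimum of 5 FPKM, which Setdb2 misses, 0 of 64 genes were lower in mM-CSF than in control after length adjustment. The share of all genes was 7.91%. TPM scaling gave 35 genes lower in mM-CSF than in control (median -1.05), against 28.9% of all genes. It gave 1 lower in sM-CSF than in control (median -0.22), against 3.54%, and 1 higher after length adjustment, against 1.32%. In mM-CSF against sM-CSF it gave 29 lower (median -0.83), against 19.1%. Median-of-ratios scaling gave 10 lower in mM-CSF than in sM-CSF, against 6.47% of all genes. A size rule of 1.5-fold gave, in mM-CSF against control, 35 lower and 1 higher, against 27.0% and 19.9% of all genes. After length adjustment it gave 9 lower and 2 higher, against 17.8% and 11.9%. In sM-CSF against control it gave 3 lower and 2 higher, against 6.46% and 5.06%. After adjustment these were 1 and 1, against 6.53% and 3.33%. In mM-CSF against sM-CSF it gave 30 lower, against 22.4%. After adjustment 4 were lower and 1 higher, against 13.0% and 9.14%. With 20 length bins, 2 genes were lower in mM-CSF than in control after adjustment, Setdb2 and Kmt2d, against 9.14% of all genes. The causes were not tested. Like length with like level, the lowess fit and 1 length per gene moved no count by more than 1.5 times; the last 2 were chosen after seeing the data. Depth limits Setdb2, Setd4, Smarcd3 and Hdac11, which had 18 to 111 counts per library. It also limits Kdm8, Hdac8 and Kat6b, the other genes with fewer than 100 counts in some library. Kat6b, with 99 counts in mM-CSF, was among the genes 2-fold lower in mM-CSF than in control.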
